A study of Rattus norvegicus with 9 samples.

Results

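The genes described here are the rat heterogeneous nuclear ribonucleoproteins and the core proteins of the spliceosome, measured in vascular smooth muscle cells of the thoracic aorta. They were chosen by name: a row belonged to the set when its gene symbol began with Hnrnp, Snrp, Prpf, Sf3a or Sf3b and its level reached 1 FPKM (fragments per length of the transcript and depth of the library) in at least 3 of the 9 libraries. The rule used no difference between groups, though the set was chosen with earlier results of these data known. Of 54 rows with such a symbol, 51 passed, out of 8532 genes that passed the same filter and 32792 rows in all. The 51 members were 18 of 19 Hnrnp rows, 11 of 13 Snrp rows, all 13 Prpf rows, all 3 Sf3a rows and all 6 Sf3b rows.

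The 9 libraries fell into 3 groups of 3. CTSD cells (labelled T_A) were transfected to overexpress CTSD, the lysosomal protease cathepsin D, and were exposed to advanced glycation end products (AGEs). Vector-AGEs cells (NC_A) carried an empty vector and received AGEs. Vector-BSA cells (NC_B) also carried the empty vector, with bovine serum albumin (BSA) in place of AGEs. The design text gives the AGEs exposure as 200 µg/mL for 24 h and names the comparisons of CTSD with vector-AGEs cells and of vector-AGEs with vector-BSA cells. All 3 groups were therefore transfected cells. The design text also lists cells without any vector, which were not analysed here. The cell type is given as vascular smooth muscle cells, with no promoter, clone or donor named, so the p-values below measure the spread between 3 libraries a group, which may be technical.

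Cells remove introns from their transcripts with the spliceosome, which is built on each intron from small nuclear ribonucleoproteins (snRNPs). The U1 and U2 snRNPs mark the ends of an intron, the tri-snRNP of U4, U6 and U5 then joins, and rearrangement of the whole makes the catalytic centre. The Snrp genes encode proteins of these particles, the Sf3a and Sf3b genes encode the 2 complexes that hold U2 on the branch point, and the Prpf genes encode proteins named after yeast pre-mRNA processing mutants. The hnRNP proteins coat nuclear transcripts, influence which splice sites are used and take part in mRNA export and stability. In smooth muscle, alternative splicing of contractile genes is known to change between contractile and growing cells.

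Ctsd itself stood at 195, 199.7 and 203 FPKM in the CTSD libraries, against 13.2, 14.8 and 13.7 FPKM in the vector-AGEs libraries and 11.7, 14.6 and 12.9 FPKM in the vector-BSA libraries. The level was 14.3-fold higher in CTSD than in vector-AGEs cells, a log2 difference of 3.75 (SE 0.08), which is in the direction of the labels. The 2-sided exact permutation p was 0.1, the smallest that 3 against 3 libraries allow. Vector-AGEs and vector-BSA cells did not differ in Ctsd beyond their spread (limma adjusted p = 0.509). Each library held 4492481 to 5341739 fragments, as recovered from the FPKM values. Of 12 smooth muscle markers, 6 passed the filter, and Myocd, the smooth muscle coactivator, was listed at 0 in all libraries, while the contractile genes Myh11, Cnn1 and Des averaged below 1 FPKM in every group. The summed level of the 12 was 332 to 347 FPKM in CTSD, 228 to 235 FPKM in vector-AGEs and 243 to 278 FPKM in vector-BSA libraries. Acta2, Tagln, Tpm1 and Tpm2 rose in CTSD relative to vector-AGEs cells, and Tpm2 fell in vector-AGEs relative to vector-BSA cells. The endothelial, macrophage, fibroblast, epithelial, adipocyte and neural lists had at most 1 gene above the filter each, and the defining markers Cdh5, Kdr, Ptprc, Lum, Epcam, Adipoq and Fabp4 were listed at 0 in every library. A listed 0, for these markers as for Myocd, need not mean a silent gene, because B2m, Fth1 and Hprt1 were also listed at 0 throughout. Summed over each list, no library passed 0.136 FPKM for endothelial, 1.76 FPKM for macrophage, 2.57 FPKM for fibroblast, 0.237 FPKM for epithelial or 0.861 FPKM for neural markers. The 1 abundant gene among these lists was Pparg, an adipocyte marker, at 394 ± 12.2 FPKM in CTSD, 304 ± 10.2 FPKM in vector-AGEs and 253 ± 9.92 FPKM in vector-BSA cells (SD, n = 3 each). The part of these marker differences in the results below was not tested.

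The promoters of the members with the largest called changes are printed first, since the results below turn on these genes. They are the 250 bases before the annotated start from RefSeq (assembly GRCr8), for the 3 largest falls and the 2 largest rises among members with a mean of at least 10 FPKM when CTSD cells were set against vector-AGEs cells. Each is written 5′ to 3′ on the strand of the gene, and capitals mark any match, on either strand, to the motifs listed here. The letters CCGGAAG are bound by ETS factors. The letters CCAAT are bound by NF-Y and GGGCGG by SP factors. TATAAA is the TATA box, and the E-box searched was CACGTG. Sf3b1 lies at chr9:64026720-64026969 on the minus strand, Hnrnpm at chr7:15178872-15179121 on the minus strand, Hnrnpu at chr13:92618581-92618830 on the minus strand, Prpf40b at chr7:132318418-132318667 on the plus strand and Sf3b5 at chr1:9176939-9177188 on the plus strand.
Sf3b1: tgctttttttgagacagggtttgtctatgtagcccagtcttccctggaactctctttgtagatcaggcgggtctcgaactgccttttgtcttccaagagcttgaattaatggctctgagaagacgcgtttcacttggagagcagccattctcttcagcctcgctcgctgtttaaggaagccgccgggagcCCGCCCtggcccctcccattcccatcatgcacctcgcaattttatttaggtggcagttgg
Hnrnpm: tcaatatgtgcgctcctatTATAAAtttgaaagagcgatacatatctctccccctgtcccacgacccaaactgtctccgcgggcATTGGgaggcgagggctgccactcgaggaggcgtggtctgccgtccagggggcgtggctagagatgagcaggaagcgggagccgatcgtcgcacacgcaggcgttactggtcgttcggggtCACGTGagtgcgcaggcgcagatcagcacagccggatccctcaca
Hnrnpu: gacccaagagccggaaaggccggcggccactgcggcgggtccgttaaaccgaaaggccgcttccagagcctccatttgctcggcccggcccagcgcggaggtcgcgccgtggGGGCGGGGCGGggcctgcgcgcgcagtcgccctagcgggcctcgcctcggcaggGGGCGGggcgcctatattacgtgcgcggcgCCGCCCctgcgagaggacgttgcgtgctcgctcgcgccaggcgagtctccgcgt
Prpf40b: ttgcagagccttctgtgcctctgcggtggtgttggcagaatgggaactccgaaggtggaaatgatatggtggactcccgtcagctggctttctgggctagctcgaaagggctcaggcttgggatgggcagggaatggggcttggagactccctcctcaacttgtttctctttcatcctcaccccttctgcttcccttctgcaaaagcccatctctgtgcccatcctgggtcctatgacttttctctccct
Sf3b5: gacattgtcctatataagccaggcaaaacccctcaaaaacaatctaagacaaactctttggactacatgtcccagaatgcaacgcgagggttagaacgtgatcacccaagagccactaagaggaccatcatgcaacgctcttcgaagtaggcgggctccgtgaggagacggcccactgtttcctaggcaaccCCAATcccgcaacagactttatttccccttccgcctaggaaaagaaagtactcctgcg
The 3 genes that fell each hold a match, a TATA, an NF-Y and an E-box match in Hnrnpm, 4 SP matches in Hnrnpu (2 of them overlapping) and 1 SP match in Sf3b1. Of the 2 genes that rose, Sf3b5 holds 1 NF-Y match and Prpf40b holds no match. A match is a run of letters only, and its use in these cells was not measured.

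RefSeq had promoters for 47 of the 51 members, 50 windows in all because Hnrnpf had 3 and Hnrnpdl had 2. Hnrnpll, Snrpd2l and Sf3b2 were among those without. The ETS letters occurred in 28% of the members' windows, against 16.9% of the windows of all genes tested and 7.27% of all windows in the table. NF-Y letters occurred in 50% of the members' windows, against 35.9% for genes tested, while SP letters occurred in 48%, against 62.5% for genes tested. TATA letters stood in 6% of the members' windows and 5.69% of those of genes tested and E-box letters in 12% and 8.66%. For NRF1 letters the shares were 4% and 2.02%. Members that fell in CTSD cells had 24 windows, and members that rose had 6. ETS letters were in 25% of the windows of members that fell and in none of the 6 windows of members that rose, and SP letters were in 54.2% and again none. These shares were not tested.

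More hnRNP and spliceosome core genes fell than rose in CTSD cells relative to vector-AGEs cells. Of the 51 members, 24 fell and 7 rose (47.1% and 13.7%), with a median log2 difference of -0.13, where all 8532 genes tested had a median of 0.05. Across all genes tested 12.0% fell and 18.6% rose, so the members fell in a larger share, and rose in a smaller share, than genes at large. Because abundant genes are called more often, the same shares were also taken over genes with a mean of at least 20 FPKM, a limit chosen after the data were seen. There, 23 of 46 members fell and 5 rose, against 21.1% and 29.1% of 3542 genes. The fit was limma on log2(FPKM + 1), with calls at an adjusted p under 0.05 over all genes tested. Scaling the libraries to each other by median-of-ratios factors turned the split of all calls to 1225 genes higher and 1277 lower, in place of 1591 and 1026, and left the members at 6 higher and 24 lower. Removing a trend with gene length gave 1272 genes higher and 1305 lower, with 6 members higher and 26 lower. A library of cells gives shares of RNA, so fewer cells that express a gene and less of its RNA per cell cannot be told apart here.

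The summed level of the 51 members was 13634 ± 217 FPKM in CTSD, 15700 ± 290 FPKM in vector-AGEs and 14571 ± 57.5 FPKM in vector-BSA cells (SD, n = 3 each). Every CTSD library lay below every vector-BSA library, and every vector-AGEs library lay above them. The 18 Hnrnp genes made up most of this sum, with 8531 ± 240 FPKM in CTSD, 10283 ± 344 FPKM in vector-AGEs and 9635 ± 132 FPKM in vector-BSA cells. Snrp genes summed to 2787 ± 29.5, 2800 ± 126 and 2557 ± 70.3 FPKM in the same order of groups, and Prpf genes to 1160 ± 10.9, 1213 ± 25.7 and 1176 ± 15.9 FPKM. Sf3a genes summed to 372 ± 6.88 FPKM in CTSD, 483 ± 11.8 FPKM in vector-AGEs and 414 ± 14.9 FPKM in vector-BSA cells, and Sf3b genes to 784 ± 14.6, 921 ± 30.2 and 789 ± 9.05 FPKM in that order. The Sf3b sum of CTSD cells thus lay at the level of vector-BSA cells, while the Hnrnp and Sf3a sums lay below it. Genes within a sum went both ways between these groups. Sf3a3, the most abundant Sf3a gene, was lower in CTSD cells, and Sf3a1 was higher. Sf3b1 was lower, and Sf3b2, Sf3b3 and Sf3b5 were higher. The sums are of levels per length, and no test was made on them. In CTSD cells 34 of the 51 members averaged above 100 FPKM.

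**Figure D1:**
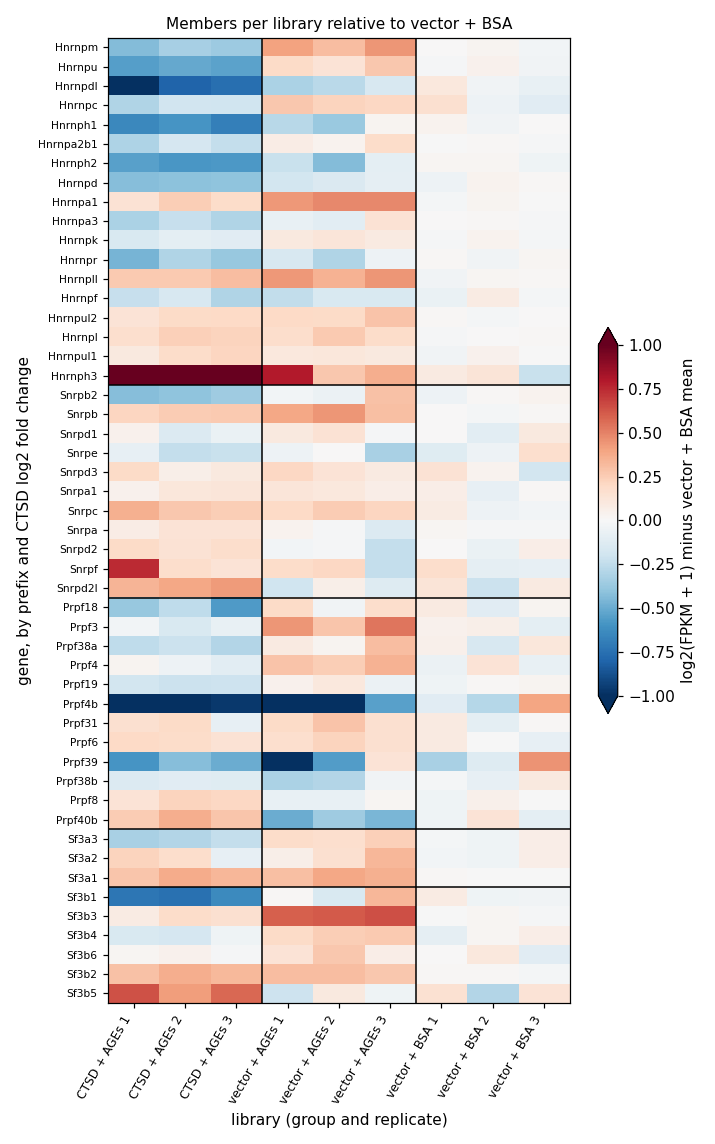
Each row is 1 of 50 members and each column 1 of the 9 libraries, in the order CTSD, vector-AGEs and vector-BSA cells; colour gives log2(FPKM + 1) minus the mean of the vector-BSA libraries, limited to 1 either way. Most Hnrnp rows are blue in the CTSD columns, and Sf3b3 and Hnrnpa1 are red in the vector-AGEs columns.

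The hnRNP genes carried the fall most often: 13 of 18 fell in CTSD cells relative to vector-AGEs cells and 1 rose, with a median log2 difference of -0.27. These are 72.2% and 5.56%, against 12.0% and 18.6% of all genes tested. Over genes with a mean of at least 20 FPKM the shares were 21.1% and 29.1%, and the 1 Hnrnp gene that rose lay below that level. The largest falls were in Hnrnpm, a splicing regulator that binds GU-rich RNA, in Hnrnpu, a nuclear scaffold protein that binds RNA and chromatin, and in Hnrnpdl, a relative of Hnrnpd. Hnrnpm stood at 277, 298 and 292 FPKM in CTSD libraries, against 497, 466 and 509.6 FPKM in vector-AGEs libraries and 376, 383 and 369 FPKM in vector-BSA libraries. The 3 groups did not overlap, with vector-AGEs highest and CTSD lowest. The log2 difference between CTSD and vector-AGEs cells was -0.76 (SE 0.05, limma adjusted p = 4.08e-06), a level 0.59 times that of vector-AGEs cells. Hnrnpu stood at 415, 428 and 420.0 FPKM in CTSD libraries, against 695, 669 and 733 FPKM in vector-AGEs libraries and 604, 627 and 596 FPKM in vector-BSA libraries. Again no group overlapped another, in the same order, and the log2 difference was -0.73 (SE 0.04, limma adjusted p = 3.48e-06).

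Hnrnpdl stood at 64.8, 75.3 and 77.6 FPKM in CTSD libraries, against 106, 109 and 117 FPKM in vector-AGEs libraries and 142, 129 and 125 FPKM in vector-BSA libraries. Here vector-BSA cells were highest, and CTSD cells lay below both vector groups, with a log2 difference of -0.61 (SE 0.08, limma adjusted p = 0.000256) against vector-AGEs and of -0.86 (adjusted p = 6.12e-05) against vector-BSA cells. The 1 Hnrnp gene that rose was Hnrnph3, a relative of the G-tract-binding hnRNPs H and F, and it was the least abundant member. It stood at 2.35, 2.29 and 2.33 FPKM in CTSD libraries, against 1.39, 0.663 and 0.768 FPKM in vector-AGEs libraries and 0.465, 0.508 and 0.183 FPKM in vector-BSA libraries. Those levels came from 1 to 15 fragments a library. The gene was above 1 FPKM in every CTSD library and in 1 vector-AGEs library, so it passed the filter through the group in which it was high. Its log2 difference of 0.80 (SE 0.19, limma adjusted p = 0.00937) rests on these few fragments, and it is not tested when a mean of 5 FPKM is required.

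The A-type and C-type members, of the kinds that make up the classical core particle on nascent transcripts, also fell. A further A-type row that is not a member, LOC681410, described as hnRNP A0, did not pass (-0.07, limma adjusted p = 0.274). Hnrnpa2b1 was the most abundant of all members, at 1453, 1599 and 1525 FPKM in CTSD libraries, against 1897, 1839 and 2043 FPKM in vector-AGEs libraries and 1797, 1811 and 1787 FPKM in vector-BSA libraries. CTSD libraries lay below all others, and vector-AGEs libraries lay slightly above vector-BSA libraries, a difference of 0.10 on the log2 scale that did not pass (limma adjusted p = 0.192). Its log2 difference between CTSD and vector-AGEs cells was -0.34 (SE 0.05, limma adjusted p = 0.00046). Hnrnpa1, the best studied repressor of exon inclusion in the family, stood at 774, 831 and 796 FPKM in CTSD libraries, against 946, 976 and 978 FPKM in vector-AGEs libraries and 691, 712 and 698 FPKM in vector-BSA libraries. For Hnrnpa1 the CTSD libraries lay between the vector groups, with a log2 difference of -0.27 (SE 0.04, adjusted p = 0.000377) from vector-AGEs and of 0.19 (adjusted p = 0.00328) from vector-BSA cells. Hnrnpa3 had a log2 difference of -0.27 (limma adjusted p = 0.0058) between CTSD and vector-AGEs cells. Hnrnpc, which binds uridine tracts and keeps cryptic exons out, had one of -0.46 (SE 0.07, adjusted p = 0.000647).

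Among the remaining hnRNPs, those that bind G-rich RNA split. Hnrnph1 and Hnrnph2 fell in CTSD relative to vector-AGEs cells, with log2 differences of -0.43 (limma adjusted p = 0.00336) and -0.32 (adjusted p = 0.00771), while Hnrnpf differed by -0.05 (adjusted p = 0.523). Hnrnpd, also called AUF1, a protein that binds AU-rich elements of unstable mRNAs, differed by -0.27 (adjusted p = 0.000461), and Hnrnpk, which binds poly(C) RNA, differed by -0.22 (adjusted p = 0.000643). The smallest falls were in Hnrnpr (-0.21, adjusted p = 0.0412) and Hnrnpll (-0.13, adjusted p = 0.0378). Neither holds when single libraries are left out: Hnrnpr reached an adjusted p of 0.136 without CTSD replicate 1, and Hnrnpll one of 0.117 without vector-AGEs replicate 1. With the replicate number as a block, the limma adjusted p was 0.0534 for Hnrnpr and 0.0544 for Hnrnpll. The other 3 members that did not pass were Hnrnpl, which binds CA repeats, at 0.00 (adjusted p = 0.978), and the relatives of Hnrnpu, Hnrnpul1 at 0.06 (adjusted p = 0.334) and Hnrnpul2 at -0.04 (adjusted p = 0.45).

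**Figure D2:**
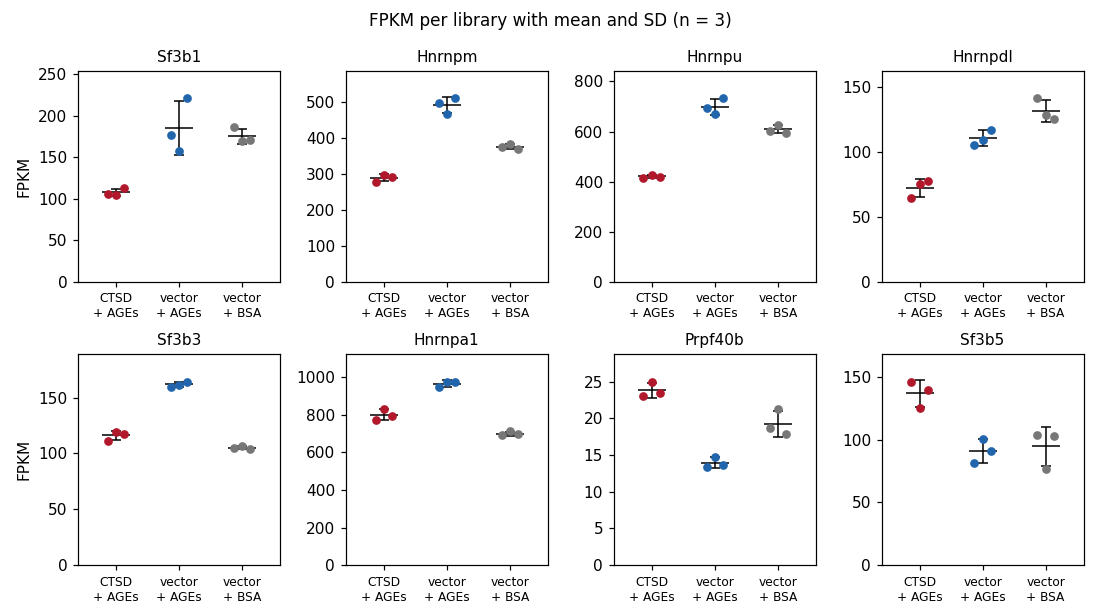
FPKM in every library (points) with group mean and SD for 8 members, CTSD cells on the left of each panel, vector-AGEs cells in the middle and vector-BSA cells on the right. Sf3b1, Hnrnpm, Hnrnpu and Hnrnpdl were lowest in CTSD cells, Sf3b3 and Hnrnpa1 highest in vector-AGEs cells, and Prpf40b and Sf3b5 highest in CTSD cells.

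The Snrp genes encode the Sm proteins, which form a ring around each spliceosomal RNA, and the proteins special to U1 and U2. In CTSD relative to vector-AGEs cells 3 of 11 rose and 2 fell (27.3% and 18.2%), near the 29.1% and 21.1% of all genes with a mean of at least 20 FPKM, with a median log2 difference of -0.0032. Snrpb, the Sm B protein and the most abundant of them, stood at 836, 856 and 859.9 FPKM in CTSD libraries, against 938, 973 and 883 FPKM in vector-AGEs libraries and 722, 709.9 and 723 FPKM in vector-BSA libraries. The CTSD libraries lay between the vector groups without overlap, and the log2 difference from vector-AGEs cells was -0.13 (SE 0.04, limma adjusted p = 0.0311). That call was lost when 1 of several libraries was left out, with an adjusted p of 0.0964 without vector-AGEs replicate 2. Snrpb2, the U2 B″ protein, stood at 85.9, 87.6 and 90.3 FPKM in CTSD libraries, against 113, 111 and 142 FPKM in vector-AGEs libraries and 112, 117 and 119 FPKM in vector-BSA libraries. It was below both vector groups in all 3 CTSD libraries, with a log2 difference of -0.46 (SE 0.08, adjusted p = 0.00201) against vector-AGEs cells.

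The 3 Snrp genes that rose were Snrpd2, Snrpd2l and Snrpa. Snrpd2, the Sm D2 protein, stood at 376, 365 and 371 FPKM in CTSD libraries, against 323, 327 and 278 FPKM in vector-AGEs libraries and 329.8, 314 and 345 FPKM in vector-BSA libraries, a log2 difference of 0.26 (SE 0.06, limma adjusted p = 0.00892) between CTSD and vector-AGEs cells. Snrpd2l, by its name a relative of Snrpd2, stood at 104, 107 and 111 FPKM in CTSD libraries, against 71.2, 85.4 and 75.0 FPKM in vector-AGEs libraries and 89.4, 70.4 and 87.3 FPKM in vector-BSA libraries, a difference of 0.47 (SE 0.09, adjusted p = 0.0035). CTSD libraries were the highest for both genes. The Snrpd2l model spans 357 bases without an intron, so reads of Snrpd2 and Snrpd2l may have been divided between them, and their rises may not be independent. Snrpa, the U1 A protein, stood at 240.3, 251 and 251 FPKM in CTSD libraries, against 233, 226 and 207 FPKM in vector-AGEs libraries and 232, 226 and 227 FPKM in vector-BSA libraries, a difference of 0.16 (SE 0.05, adjusted p = 0.0314). This was the least stable of the rises, with an adjusted p of 0.0937 without CTSD replicate 3, and it did not pass after median-of-ratios scaling.

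The other 6 Snrp genes did not pass the test between CTSD and vector-AGEs cells, with log2 differences of -0.13 for Snrpd1, -0.06 for Snrpe, -0.03 for Snrpd3, -0.00 for Snrpa1, 0.07 for Snrpc and 0.30 for Snrpf. Snrpd1, Snrpd3, Snrpe and Snrpf encode further Sm ring proteins, Snrpa1 the U2 A′ protein and Snrpc the U1 C protein. The ring could not be followed as a whole, because Snrpg was listed at 0 in all 9 libraries. Snrpn, the imprinted relative of Snrpb, and Hnrnpab were also listed at 0 throughout. A 0 in these values need not mean a silent gene: B2m, Fth1 and Hprt1, which are used by nearly every cell, were listed at 0 in all 9 libraries too. The Snrpe model, like that of Snrpd2l, has no intron (418 bases), so its level may include reads of a copy.

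SF3A and SF3B are the protein complexes that anchor the U2 snRNP at the branch point of the intron. Of 6 Sf3b genes 3 fell and 1 rose in CTSD relative to vector-AGEs cells, and of 3 Sf3a genes 1 fell. Beside these few genes, 21.1% of all genes with a mean of at least 20 FPKM fell and 29.1% rose. Sf3b1, the large scaffold of SF3B, had the largest fall of all members, though level within the SE with Hnrnpm (-0.76, SE 0.05). It stood at 106, 104 and 113 FPKM in CTSD libraries. Vector-AGEs libraries stood at 176, 157 and 221 FPKM, and vector-BSA libraries at 186, 169.8 and 171 FPKM. CTSD libraries lay below all 6 others, and both vector groups overlapped. The log2 difference was -0.76 (SE 0.10, limma adjusted p = 0.000351) against vector-AGEs and -0.70 (adjusted p = 0.000765) against vector-BSA cells. Sf3b3, a subunit built of beta-propellers, followed another order, at 111, 119.7 and 118 FPKM in CTSD libraries, against 159.8, 162 and 164 FPKM in vector-AGEs libraries and 105, 106 and 104 FPKM in vector-BSA libraries. Its CTSD libraries were close to, and slightly above, the vector-BSA libraries, with a log2 difference of -0.48 (SE 0.04, adjusted p = 4.09e-05) from vector-AGEs and of 0.14 (adjusted p = 0.0295) from vector-BSA cells.

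Sf3b4, the most abundant of the Sf3b genes, whose protein contacts the intron upstream of the branch point, stood at 171, 169.5 and 185 FPKM in CTSD libraries, against 218, 226 and 229 FPKM in vector-AGEs libraries and 179, 193 and 199 FPKM in vector-BSA libraries. CTSD and vector-BSA libraries overlapped, and the log2 difference from vector-AGEs cells was -0.36 (SE 0.05, limma adjusted p = 0.000696). Sf3b5, a small subunit bound to Sf3b3 and Sf3b1, rose: it stood at 147, 126 and 140.1 FPKM in CTSD libraries, against 81.3, 100.4 and 91.0 FPKM in vector-AGEs libraries and 104, 76.4 and 103 FPKM in vector-BSA libraries. All CTSD libraries were above all others, and the log2 difference was 0.59 (SE 0.12, adjusted p = 0.00395) from vector-AGEs cells. Subunits of this complex thus moved in both directions. Sf3b2, at 0.03 (adjusted p = 0.646), and Sf3b6, the subunit next to the branch point adenosine, at -0.14 (adjusted p = 0.142), did not pass.

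In SF3A, Sf3a3 stood at 266, 271 and 281 FPKM in CTSD libraries, against 378, 375 and 392 FPKM in vector-AGEs libraries and 327, 322 and 349 FPKM in vector-BSA libraries. CTSD libraries were lowest and vector-AGEs libraries highest, with no overlap, and the log2 difference between these was -0.48 (SE 0.04, limma adjusted p = 3.68e-05). Its partners did not pass, with Sf3a1 at -0.02 (adjusted p = 0.818) and Sf3a2 at -0.08 (adjusted p = 0.606).

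The Prpf genes were mixed in role and in level, with mean FPKM over the 9 libraries between 6.16 for Prpf18 and 340.0 for Prpf19. In CTSD relative to vector-AGEs cells 5 of 13 fell and 2 rose (38.5% and 15.4%), with a median log2 difference of -0.12. Of all genes tested 12.0% fell and 18.6% rose, and of those with a mean of at least 20 FPKM 21.1% and 29.1%. Prpf8, the large protein that cradles the catalytic centre in U5, stood at 339, 361 and 357 FPKM in CTSD libraries, against 294, 294 and 314 FPKM in vector-AGEs libraries and 299, 319 and 308 FPKM in vector-BSA libraries. CTSD libraries were the highest, with a log2 difference of 0.23 (SE 0.04, limma adjusted p = 0.00316) against vector-AGEs cells. Prpf40b, a WW-domain relative of a yeast U1 protein, stood at 23.1, 25.0 and 23.4 FPKM in CTSD libraries, against 13.3, 14.8 and 13.7 FPKM in vector-AGEs libraries and 18.6, 21.2 and 17.8 FPKM in vector-BSA libraries. The groups did not overlap, vector-AGEs cells were lowest, and the difference of CTSD from vector-AGEs cells was 0.74 (SE 0.09, adjusted p = 0.000193).

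Of the Prpf proteins of the U4/U6 particle, Prpf3 and Prpf4 fell, and Prpf31, which binds U4, did not pass (-0.12, limma adjusted p = 0.307). Prpf3 stood at 64.6, 59.3 and 62.8 FPKM in CTSD libraries, against 90.2, 80.1 and 96.1 FPKM in vector-AGEs libraries and 68.1, 68.6 and 61.5 FPKM in vector-BSA libraries, a log2 difference of -0.50 (SE 0.07, limma adjusted p = 0.000667) between CTSD and vector-AGEs cells. Its partner Prpf4 differed by -0.33 (SE 0.07, adjusted p = 0.00455). CTSD and vector-BSA libraries overlapped for both genes. Prpf38a, a protein of the spliceosome before its activation, stood at 31.9, 32.8 and 31.1 FPKM in CTSD libraries, against 40.8, 38.9 and 47.6 FPKM in vector-AGEs libraries and 39.7, 34.1 and 41.4 FPKM in vector-BSA libraries, a difference of -0.40 (SE 0.09, adjusted p = 0.00824). Prpf18, which acts in the second catalytic step, was scarce, at 4.82, 5.31 and 4.08 FPKM in CTSD libraries, against 7.63, 6.35 and 7.54 FPKM in vector-AGEs libraries and 7.02, 5.98 and 6.67 FPKM in vector-BSA libraries. Its log2 difference of -0.51 (SE 0.13, adjusted p = 0.0132) had an adjusted p of 0.0528 without CTSD replicate 3. Prpf19, the ubiquitin ligase that names the Prp19 complex and the most abundant Prpf gene, stood at 310.5, 303 and 306 FPKM in CTSD libraries, against 363, 381 and 338 FPKM in vector-AGEs libraries and 343, 356 and 359.8 FPKM in vector-BSA libraries. CTSD libraries lay below all others, and the difference from vector-AGEs cells was -0.23 (SE 0.05, adjusted p = 0.00395).

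None of the other 6 Prpf genes passed between CTSD and vector-AGEs cells. Prpf6, which bridges U5 and U4/U6, was at -0.01 on the log2 scale, Prpf31 at -0.12, and Prpf38b, a relative of Prpf38a, at 0.09. Prpf39, which is tied to U1, was at 0.01 and Prpf4b, a kinase of the tri-snRNP, at -0.17, both with wide spread. In both genes the replicate 3 libraries of both vector groups stood above the others of their group.

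**Figure D3:**
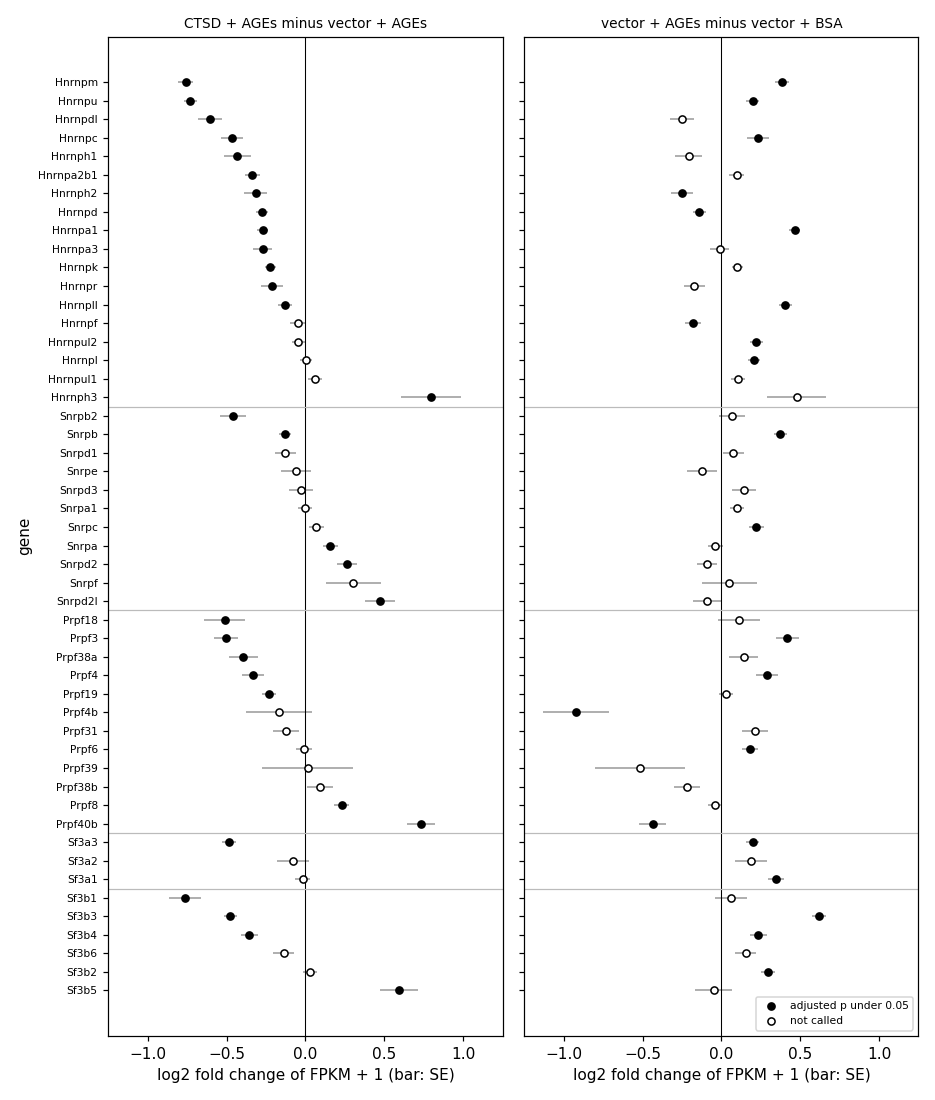
Log2 difference of 50 members with its SE, CTSD minus vector-AGEs cells on the left and vector-AGEs minus vector-BSA cells on the right; filled points passed at an adjusted p under 0.05. On the left 24 filled points lie below 0 and 7 above, and on the right 5 lie below and 17 above.

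With AGEs alone, in vector-AGEs against vector-BSA cells, more of these genes rose than fell. Of the 51 members 17 rose and 5 fell (33.3% and 9.80%), with a median log2 difference of 0.10, where all genes tested had a median of -0.06. Across all genes tested 6.05% rose and 8.92% fell. Over genes with a mean of at least 20 FPKM, 12.6% rose and 12.8% fell, and of the 46 members at that level 17 rose and 3 fell. By prefix, 7 Hnrnp genes rose and 3 fell, 2 Snrp genes rose, 3 Prpf genes rose and 2 fell, 2 Sf3a genes rose and 3 Sf3b genes rose. Median-of-ratios scaling gave 749 genes higher and 523 lower in all, in place of 516 and 761, and 19 members higher and 2 lower. Removing a trend with gene length gave 734 and 513 genes and 20 and 2 members, and quantile normalization gave 602 and 563 genes and 13 and 6 members. In this comparison same-numbered libraries deviated together, and with the replicate number as a block 16 members rose and 4 fell. This comparison shares the vector-AGEs libraries with that of CTSD cells, so their opposite signs are not independent and each gene's values are given side by side only.

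Sf3b3 had the largest rise with AGEs, 0.62 on the log2 scale (SE 0.04, limma adjusted p = 5.88e-05), a level 1.54 times that of vector-BSA cells. Hnrnpa1 followed with 0.46 (SE 0.04, adjusted p = 9.34e-05), Prpf3 with 0.42 (SE 0.07, adjusted p = 0.00528) and Hnrnpll with 0.41 (SE 0.04, adjusted p = 0.000295). The vector-AGEs libraries lay above the vector-BSA libraries without overlap in each of these 4. Hnrnpm rose by 0.38 (SE 0.05, adjusted p = 0.000639), Snrpb by 0.37 (SE 0.04, adjusted p = 0.000364) and Sf3a1 by 0.35 (SE 0.05, adjusted p = 0.00179). The rises of Sf3b2, Hnrnpul2 and Snrpc were 0.30, 0.22 and 0.22 on the log2 scale, with adjusted p of 0.00197, 0.00562 and 0.0125.

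The other 7 rises were called here but not under every alternative. They were Prpf4 at 0.29 (limma adjusted p = 0.0194), Sf3b4 at 0.23 (adjusted p = 0.0156), Hnrnpl at 0.21 (adjusted p = 0.00501), Hnrnpu at 0.20 (adjusted p = 0.0108), Sf3a3 at 0.20 (adjusted p = 0.0134) and Prpf6 at 0.18 (adjusted p = 0.0349). The 7th, Hnrnpc at 0.23 (adjusted p = 0.047), had an adjusted p of 0.0617 with the replicate block. Hnrnpl and Hnrnpu lost the call under quantile normalization alone. The highest adjusted p with a library left out was 0.0716 for Prpf4, 0.0585 for Sf3b4, 0.053 for Sf3a3, 0.116 for Prpf6 and 0.152 for Hnrnpc.

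The 5 falls with AGEs were Prpf4b, Prpf40b, Hnrnph2, Hnrnpf and Hnrnpd. Prpf4b stood at 4.02, 5.25 and 5.38 FPKM in CTSD libraries and 4.93, 4.59 and 7.56 FPKM in vector-AGEs libraries, against 10.5, 9.24 and 15.4 FPKM in vector-BSA libraries. Its log2 difference with AGEs was -0.92 (SE 0.21, limma adjusted p = 0.0164), and no CTSD or vector-AGEs library reached the lowest vector-BSA library. The log2 differences with AGEs were -0.44 for Prpf40b (SE 0.09, adjusted p = 0.00886), -0.25 for Hnrnph2 (SE 0.07, adjusted p = 0.0433), -0.18 for Hnrnpf (SE 0.05, adjusted p = 0.0375) and -0.14 for Hnrnpd (SE 0.04, adjusted p = 0.0362). Hnrnph2 had an adjusted p of 0.0505 with the replicate block. Only Prpf40b kept its call under every alternative tried, and without vector-AGEs replicate 3 the count of falls was 11 in place of 5. Hnrnpdl, Hnrnph1, Hnrnpr, Prpf38b and Prpf39 were among the genes then added.

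Beside the vector-BSA cells, CTSD cells had 18 members lower and 16 higher, a comparison that the design text does not name and that shares libraries with both others. Among all genes tested 16.3% were lower and 16.3% higher. Over genes with a mean of at least 20 FPKM, 22.9% were lower and 28.4% higher. Of the 46 members at that level 16 were lower and 14 higher (34.8% and 30.4%), so the share higher lay near that of genes at large. By prefix, 12 Hnrnp genes were lower and 6 higher, so all 18 passed. However, 1 of the 6 was Hnrnph3, which had 1 to 3 fragments in each vector-BSA library. It passed the filter through the CTSD libraries, in which it was high. Snrp genes had 1 lower and 3 higher, Prpf genes 3 lower and 3 higher, Sf3a genes 1 lower and 1 higher, and Sf3b genes 1 lower and 3 higher. Hnrnpdl (-0.86, limma adjusted p = 6.12e-05), Sf3b1 (-0.70, adjusted p = 0.000765), Hnrnph1 (-0.64, adjusted p = 0.000462) and Hnrnph2 (-0.57, adjusted p = 0.000371) were lower in CTSD cells on the log2 scale. The Sf3b genes higher in CTSD than in vector-BSA cells were Sf3b5 (0.54, adjusted p = 0.0067), Sf3b2 (0.33, adjusted p = 0.000455) and Sf3b3 (0.14, adjusted p = 0.0295). Hnrnpll (0.28, adjusted p = 0.000929), Hnrnpl (0.21, adjusted p = 0.00197) and Snrpb (0.24, adjusted p = 0.00144) were also higher.

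**Figure D4:**
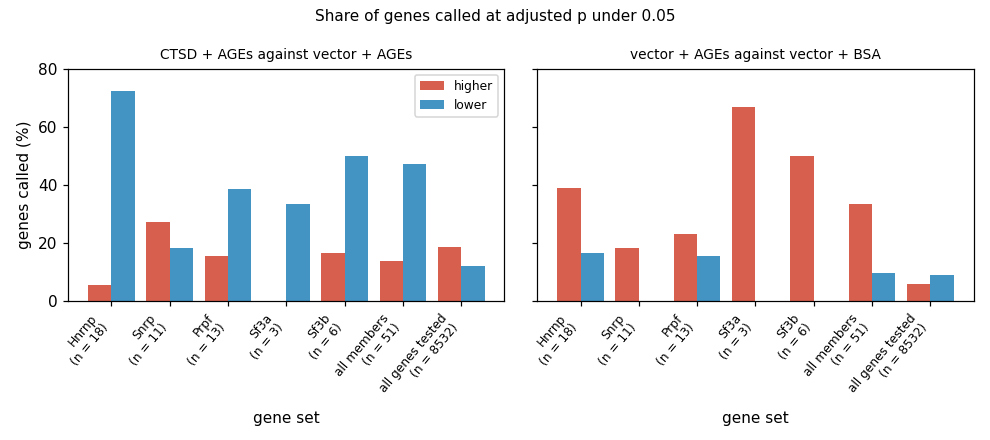
Percent of genes higher and lower at an adjusted p under 0.05, for each prefix, all 51 members and all 8532 genes tested, with CTSD against vector-AGEs cells and vector-AGEs against vector-BSA cells in separate panels. All members stand at 47.1% lower and 13.7% higher in the CTSD comparison and at 9.80% lower and 33.3% higher in the AGEs comparison.

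Genes of the splicing machinery with other names were followed in 9 lists of 187 entries, of which 149 rows passed the filter. Their counts stand against the 12.0% of all genes tested that fell and the 18.6% that rose in CTSD relative to vector-AGEs cells (21.1% and 29.1% at a mean of at least 20 FPKM), and against 8.92% and 6.05% with AGEs (12.8% and 12.6%). Blocked counts are given where the replicate block changed a count with AGEs. SR proteins, which promote exon inclusion, fell more often than they rose in CTSD relative to vector-AGEs cells, with 7 lower and 1 higher of 16 and a median log2 difference of -0.10. Srsf1 differed by -1.36 (limma adjusted p = 2.77e-07), Srsf6 by -1.03 (adjusted p = 5.79e-06) and Srsf2 by -0.79 (adjusted p = 3.06e-06). With AGEs 2 SR genes rose and 3 fell (1 and 3 with the replicate block). Of 29 hnRNP-related RNA-binding proteins outside the prefixes, 14 fell and 1 rose with CTSD (median -0.22), and 5 rose and 2 fell with AGEs (median 0.05), with 3 falls under the block, where Matr3 passed. Fubp1, which binds AU-rich single-stranded nucleic acid, differed by -0.99 (adjusted p = 1.39e-05) with CTSD, Sfpq, a paraspeckle protein, by -0.90 (adjusted p = 3.48e-06), and Ptbp3, a polypyrimidine tract binding protein, by -0.87 (adjusted p = 0.0088).

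Of 23 U1, U2AF and U2-associated genes, 4 fell and 1 rose with CTSD, with a median of 0.00, and the share that fell lay between the 12.0% and 21.1% of genes at large. With AGEs 3 rose and 1 fell, and under the block 3 fell, where Luc7l3 and U2surp passed. U2af1, which reads the 3′ splice site, differed by -0.52 (limma adjusted p = 1e-05), Rbm17 by -0.30 (adjusted p = 0.000624) and Luc7l2 by -0.27 (adjusted p = 0.0139). The 18 tri-snRNP and LSm genes had 3 lower and 2 higher with CTSD (median 0.01), with Lsm7 and Lsm4, proteins of the ring on U6, at 0.69 (adjusted p = 0.0185) and 0.57 (adjusted p = 0.026) and Smu1 at -0.62 (adjusted p = 8.32e-05). With AGEs 4 of them rose. The Prp19 complex and catalytic-step factors gave 24 rows, of which 8 fell and 2 rose with CTSD (median -0.20) and 4 rose and 1 fell with AGEs. Snw1 differed by -0.89 (adjusted p = 4.63e-05), Aqr, an RNA helicase that binds introns, by -0.68 (adjusted p = 0.00038) and Crnkl1, which stood on 2 rows that both fell, by -0.54 (adjusted p = 0.0232).

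Of 15 spliceosomal helicases 6 fell and 1 rose with CTSD (median -0.12), and 5 rose and 5 fell with AGEs (4 and 4 under the block). Dhx15, which takes spent spliceosomes apart, differed by -0.80 (limma adjusted p = 8.68e-06) with CTSD, Ddx3x by -0.56 (adjusted p = 0.0125) and Dhx9 by -0.54 (adjusted p = 0.00131). The SMN complex, which loads the Sm ring, had 9 genes tested, of which 3 fell with CTSD and 3 rose with AGEs (2 under the block). Ddx20 differed by -0.77 (adjusted p = 4.71e-05) with CTSD, Smn1 by -0.24 (adjusted p = 0.0371) and Prmt5, which methylates Sm proteins, by -0.12 (adjusted p = 0.0496). Of 9 exon junction complex genes 2 fell with CTSD, a share near that of all genes with a mean of at least 20 FPKM, Magoh at -0.31 (adjusted p = 0.0304) and Acin1 at -0.27 (adjusted p = 0.00159), and 3 rose with AGEs (4 under the block). Of 6 splicing kinases 2 fell with CTSD, Clk4 at -0.71 (adjusted p = 0.00282) and Srpk1 at -0.44 (adjusted p = 0.000729), and 2 rose with AGEs.

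Several members have rows in the table that are described as like them, so reads may have been divided between the rows. LOC100911576, described as like hnRNP C1/C2, stood at 71.6 ± 5.10 FPKM in CTSD, 101 ± 4.07 FPKM in vector-AGEs and 84.9 ± 4.93 FPKM in vector-BSA cells (SD, n = 3 each), with a log2 difference of -0.50 (limma adjusted p = 0.000324) between CTSD and vector-AGEs cells. Hnrnpc, its likeness, had -0.46 in the same comparison. LOC100359916, described as like hnRNP K, differed by -0.24 (adjusted p = 0.00814), beside -0.22 for Hnrnpk. The rows described as like hnRNP A3 and R, LOC100911361 at -0.28 (adjusted p = 0.0531) and LOC102551606 at -0.22 (adjusted p = 0.0672), did not pass, beside -0.27 for Hnrnpa3 and -0.21 for Hnrnpr. The U1C-like LOC685273 was at -0.03 (adjusted p = 0.802), beside 0.07 for Snrpc. The levels of Hnrnpc, Hnrnpk, Hnrnpa3, Hnrnpr and Snrpc are uncertain to that extent.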

How the data were processed

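Messenger RNA of cultured aortic smooth muscle cells from rat was isolated for 9 libraries with poly-T beads and sequenced as 150-base pairs, per the labels' protocols. The authors aligned the reads and deposited FPKM per gene, per the same protocols. Which aligner and which gene models were used is not given in the sources used here. Per the submitters' processing notes the build was mm10, a mouse build, while the deposited gene identifiers are rat, so no position from the deposited table is given. Promoters are from RefSeq (GRCr8).

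From there, genes with at least 1 FPKM in 3 or more libraries (8532 of 32792) were fitted with limma 3.58.1 (R 4.3.3, intensity trend, 1 mean per group over all 9 libraries) on log2(FPKM + 1), with Benjamini-Hochberg adjustment over all genes tested and calls at an adjusted p under 0.05, 2-sided. Fold changes are on that log2(FPKM + 1) scale, which understates changes of low genes. Fragments per gene were recovered from FPKM and length. Of values under 200 fragments, 99.32% to 99.53% a library lay within 0.1 of a whole number. Counting error limits the precision of low genes at these totals, and other spread was not separated from it. The steps were tested on simulated data of 8532 genes. For CTSD against vector-AGEs cells, 59.5% of 74 1.5-fold, 80.6% of 62 2-fold and 96.9% of 64 4-fold changes were recovered. For vector-AGEs against vector-BSA cells the shares were 57.6%, 79.7% and 92.3%. The simulation set 1 fixed spread for all genes and no pairing of replicates, so recovery in the real libraries may differ.

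All members are counted, and 1 of them is not reported here by name. Per-library values are given for up to 4 called members of each prefix with the largest change between CTSD and vector-AGEs cells and for the most abundant one, and in each list up to 3 called genes are named. Other members whose library values are printed (Hnrnpa1, Prpf8, Prpf39, Prpf4b, Snrpf) were picked after their values were seen, as was the display of promoters. The members and lists were chosen with earlier results of these data known. Same-numbered libraries of vector-AGEs and vector-BSA cells deviated together (correlations of their deviations from the group means 0.14, 0.14 and 0.15), a pairing read from the data, not from the labels. The values given are from the fit without the replicate number as a block. For vector-AGEs against vector-BSA cells, the blocked value stands beside the calls and list counts it changes. List counts that the block changes for CTSD against vector-AGEs cells are given further below. The alternatives tried were another pseudocount, no filter, a stricter filter, other scalings, a replicate block, each comparison fitted alone, a test on fragments, removal of a length trend and leaving out each library.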

Additional observations from a re-analysis of the deposited data

How the results depend on the processing

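For CTSD against vector-AGEs cells, members higher numbered 6 to 7 and members lower 20 to 26 over the 15 alternatives, and 5 of 7 rises and 20 of 24 falls were called in all of them; Hnrnph3 was called in the 14 that test it. For vector-AGEs against vector-BSA cells 10 of 17 rises and 1 of 5 falls were, and for CTSD against vector-BSA cells 9 of 16 and 15 of 18. With the replicate number as a block, CTSD against vector-AGEs cells gave 7 members higher and 22 lower, and CTSD against vector-BSA cells 17 and 18. Same-numbered libraries did not deviate together in these comparisons (correlations 0.080, -0.035 and 0.074, and 0.060, 0.0046 and 0.0030). In CTSD against vector-AGEs cells, falls under the block were 13 for hnRNP-related proteins and 5 for U1, U2AF and U2-associated genes. They were 2 for tri-snRNP and LSm genes, 9 for the Prp19 list and 2 for the SMN complex, and no SR gene rose. The other list counts of that comparison stayed the same. In vector-AGEs against vector-BSA cells the block changed no other member's call, and no other list count, than those named above. The test on fragments gave 2756 genes called for CTSD against vector-AGEs and 1546 for vector-AGEs against vector-BSA cells, against 2617 and 1277.

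For CTSD against vector-AGEs cells, the median log2 differences with median-of-ratios scaling were -0.33 for Hnrnp, -0.061 for Snrp, -0.18 for Prpf, -0.305 for Sf3b and -0.19 for all members. That scaling moved the median of all genes by less than 0.1. With the length trend removed they were -0.062 for Snrp, -0.32 for Sf3b and -0.18 for all members, and quantile normalization gave -0.16 for all members. With 1 library left out the medians ranged from -0.24 to -0.019 for Prpf, from -0.26 to -0.22 for Sf3b and from -0.15 to -0.098 for all members. Hnrnp genes higher were 0 with a mean of at least 5 FPKM, since Hnrnph3 then is not tested, and Snrp genes lower were 1 in the 2 groups alone and 1 to 2 with a library left out. List counts were 8 for U1, U2AF and U2-associated genes with a mean of at least 5 FPKM; 3 for tri-snRNP and LSm genes with no filter, 2 in the 2 groups alone and 1 to 4 with a library left out; 1 for the exon junction complex with no filter and in the 2 groups alone, and 1 to 3 with a library left out; and 1 to 3 for the SMN complex with a library left out.

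For vector-AGEs against vector-BSA cells, the medians with median-of-ratios scaling were 0.16 for Hnrnp, 0.13 for Snrp, 0.090 for Prpf, 0.255 for Sf3b and 0.16 for all members. With the length trend removed they were 0.18 for Hnrnp, 0.16 for Prpf, 0.23 for Sf3b and 0.16 for all members, and Prpf8, which was not called, turned from -0.04 to 0.16. Quantile normalization gave 0.065 for Hnrnp, with 4 Hnrnp and 1 Sf3a gene higher. Members lower were 2 with no filter, with median-of-ratios scaling and with the length trend removed (0 Hnrnp), 3 in the 2 groups alone (1 Hnrnp), and 1 to 11 with a library left out (0 to 6 Hnrnp, 1 to 5 Prpf). With a library left out, 1 to 3 Prpf and 1 to 2 Sf3a genes rose, and the medians ranged from 0.175 to 0.23 for Sf3b and from 0.074 to 0.13 for all members. List counts were 11 for hnRNP-related proteins, 6 for helicases and 6 for the exon junction complex with median-of-ratios scaling, and 6 for the exon junction complex with the length trend removed. In the 2 groups alone they were 3 for the Prp19 list, 4 for helicases and 1 for the SMN complex. With a library left out they were 5 to 12 for hnRNP-related proteins, 3 to 5 for the Prp19 list, 4 to 10 for helicases, 0 to 3 for the SMN complex, 2 to 5 for the exon junction complex and 1 to 3 for kinases. For CTSD against vector-BSA cells, Snrp genes higher were 5 in the 2 groups alone, Snrp genes lower 2 with the length trend removed, Prpf genes higher 1 to 2 and the median of all members -0.10 to -0.038 with a library left out. The cause of these differences was not tested. Where an alternative leaves a group with 2 libraries, the spread is pooled over the groups.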

Other observations

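Vector-AGEs replicate 3 was the highest of its group for several members called lower with CTSD, among them Sf3b1, Hnrnph1, Snrpb2, Hnrnpa3 and Prpf38a. Each of these named genes kept its call without that library. Replicate 3 of the vector-AGEs and vector-BSA cells stood above its group for Prpf39 and Prpf4b. Prpf39 was at 6.04, 6.89 and 6.53 FPKM in CTSD libraries, against 3.84, 6.21 and 10.6 FPKM in vector-AGEs libraries and 7.48, 8.68 and 13.5 FPKM in vector-BSA libraries, and Prpf4b was likewise highest there in the values given above. Snrpf was at 38.1, 25.4 and 24.7 FPKM in CTSD libraries, where replicate 1 stood above the others, against 25.5, 25.9 and 18.7 FPKM in vector-AGEs libraries and 25.4, 20.9 and 21.0 FPKM in vector-BSA libraries. LOC681410, described as hnRNP A0, is an hnRNP without a member's symbol, and it differed by -0.07 on the log2 scale between CTSD and vector-AGEs cells (limma adjusted p = 0.274), with levels of 317 ± 3.19, 333 ± 16.8 and 353 ± 10.1 FPKM in CTSD, vector-AGEs and vector-BSA cells (SD, n = 3 each).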
